A study of Mus musculus with 9 samples.

Results

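The genes described are 5 Ly6 transcripts, Ly6c1, Ly6c2, Ly6i, Ly6a and Ly6e, which were 5 of the 23284 gene symbols measured in splenic myeloid-derived suppressor cells (MDSCs). They were chosen by name as relatives of the antigens used to sort MDSCs, and also on measured values of both comparisons below, since Ly6C marks Mo-MDSCs and Ly6i was low in knockout Mo-MDSCs. The values of these 5 genes are therefore a description, and nothing is read from whether they passed a threshold. They were fitted together with all other genes, and p-values are given only for other genes, among them those of the family and of related pathways.

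Ly6 proteins are small, disulphide-rich proteins that are held at the outer face of the plasma membrane by a glycosylphosphatidylinositol (GPI) anchor, and they belong to a superfamily that includes the urokinase receptor. In the mouse, Ly6C on monocytes and Ly6G on neutrophils are the usual markers of the myeloid subsets, and the Gr-1 antibody binds Ly6G and, less strongly, Ly6C. Several members, Ly6a above all, are induced by interferons in lymphocytes and myeloid cells.

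RNA-sequencing was performed on 9 samples in 3 groups of 3. MDSCs were purified with magnetic beads from the spleens of mice bearing spindle cell tumours (SCTs), 3 weeks after the tumour cells were inoculated. PMN-MDSCs, the neutrophil-like subset, were taken as Ly6G+ cells of WT C57BL/6J mice, and Mo-MDSCs, the monocyte-like subset, as the Ly6G- cells that bound Gr-1, so that the products of this gene family were themselves the basis of the separation. The third group was Mo-MDSCs from C57BL/6 mice labelled as lacking both p16 (Cdkn2a) and p21 (Cdkn1a), referred to here as DKO-labelled Mo-MDSCs. All mice carried the same SCT line, which came from a p16-knockout mouse treated with chemical carcinogens. The deletions were present in every cell of the DKO-labelled mice, not in MDSCs alone. The labels give an age of 3 weeks for all groups, whereas the study's methods describe adult mice sampled 3 weeks after inoculation. No source used here says whether each sample came from a separate animal or a pool, so the spread below is that between samples, which may be technical.

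Values are FPKM, fragments scaled to transcript length and to the mapped fragments of the sample, as deposited. Read counts were not analysed here, so the depth in reads is unknown. Across all genes, 11 were at 1 FPKM or more in every replicate 1 sample and at 0 in all others, and 5 showed the opposite, and whether replicate 1 was quantified with the same annotation is not given in the sources used here. The steps of low values put the depth of the samples at 0.809 to 1.31 times that of WT Mo-MDSC replicate 1, and 11299 to 11418 genes reached 1 FPKM. Cdkn2a was at 0.718, 0.772 and 0.432 FPKM in WT Mo-MDSCs and at 0.258, 0.586 and 0 in DKO-labelled Mo-MDSCs. Cdkn1a was at 8.18, 6.46 and 8.04 FPKM in WT Mo-MDSCs and at 5.55, 8.52 and 6.00 in DKO-labelled Mo-MDSCs, so that these groups overlapped and the level of Cdkn1a did not bear out the label. Which exons the alleles lack is not given in the sources used here, and transcripts of the remaining exons would still be counted. Cxcr2, a neutrophil chemokine receptor, was at 590 to 876 FPKM in PMN-MDSCs and at 6.87 to 18.6 in WT Mo-MDSCs, and Ccr2, a monocyte chemokine receptor, was at 2.36 to 2.50 and 281 to 362. Not all markers differed so widely. Csf1r, the receptor of a macrophage growth factor, was at 674 to 841 FPKM in PMN-MDSCs and 750 to 853 in WT Mo-MDSCs. The summed FPKM of 4 B-cell markers was 1377 to 1568 in PMN-MDSCs, 969 to 1098 in WT and 1038 to 1302 in DKO-labelled Mo-MDSCs. For 5 red-pulp macrophage markers it was 4926 to 5830, 3049 to 3911 and 3249 to 5004. For 3 erythroid markers it was 3004 to 6689, 2951 to 6067 and 3719 to 5232. Of the macrophage markers, Spic was at 235 to 290 in WT and 328.5 to 520 in DKO-labelled Mo-MDSCs. Vcam1, C1qa, C1qb and C1qc overlapped between those groups. In bulk samples, fewer cells of a type and less RNA per cell cannot be told apart.

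The 5 genes lie within 0.157 Mb of mouse chromosome 15. In GRCm38, the build that the study names mm10, GENCODE M21 places Ly6e at chr15:74955051-74959905 on the plus strand. Ly6i is at chr15:74979534-74983430, Ly6a at chr15:74994877-74998031, Ly6c1 at chr15:75044018-75048830 and Ly6c2 at chr15:75108158-75111970, all 4 on the minus strand. Ly6g, the gene of the Ly6G antigen, is at chr15:75155240-75159126 on the plus strand, and its expression is not analysed here. Ly6c1 and Ly6c2, the genes of the Ly6C antigens, stand 59.2 kb apart and are near-copies. Of 393 aligned coding bases, 384 were identical (97.7%), and the longest coding stretch without a difference ran for 188 bases. The other pairs were less alike, with 86.3% identity between Ly6i and Ly6a, 81.6% between Ly6c1 and Ly6i and 49.5% to 52.7% between Ly6e and any of the others. The first 75 coding bases, from the start codon, hold 6 of the 9 differences between Ly6c1 and Ly6c2 and are shown because only reads over such bases can tell the copies apart. Capitals mark the bases that differ from Ly6c2.
Ly6c2: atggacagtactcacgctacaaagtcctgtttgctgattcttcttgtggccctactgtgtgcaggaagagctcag
Ly6c1: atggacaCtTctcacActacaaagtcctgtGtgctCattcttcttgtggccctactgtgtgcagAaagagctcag
Ly6a: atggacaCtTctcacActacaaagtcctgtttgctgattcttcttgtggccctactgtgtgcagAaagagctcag
Ly6i: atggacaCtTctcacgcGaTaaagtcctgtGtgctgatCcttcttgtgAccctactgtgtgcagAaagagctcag
Ly6g: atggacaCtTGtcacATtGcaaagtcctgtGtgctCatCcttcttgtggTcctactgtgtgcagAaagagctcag

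The reads were 75 bases long. Of all 75-base stretches of the Ly6c1 transcript, 23.25% occurred unchanged in another Ly6 transcript and 94.29% with at most 2 mismatches, and for Ly6c2 these shares were 21.93% and 87.83%. For Ly6a and Ly6i, 0.81% and 0.55% were shared exactly, and 15.17% and 8.78% with at most 2 mismatches. No stretch of Ly6e was shared. How the authors' programs divided reads between near-copies is not given in the sources used here, so that the division between Ly6c1 and Ly6c2 is uncertain, while their sum, Ly6a and Ly6e depend less on it.

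In the deposited values, which depend on that division, Ly6c2 was far above Ly6c1. It was at 147, 100.3 and 279 FPKM in PMN-MDSC replicates 1, 2 and 3 and at 499, 357 and 614 in WT Mo-MDSCs, while the DKO-labelled samples were at 260, 289 and 244. The 3 WT Mo-MDSC samples were the highest of the 9, and PMN-MDSC replicate 3 lay within the range of the DKO-labelled samples. The mean was 175 ± 92.7 FPKM (SD, n = 3) in PMN-MDSCs, 490 ± 129 in WT Mo-MDSCs and 265 ± 22.7 in DKO-labelled Mo-MDSCs. On the log2(FPKM + 0.1) scale, WT Mo-MDSCs were 1.58 ± 0.37 (SE) above PMN-MDSCs, or 2.99-fold, and the DKO-labelled samples were lower than WT Mo-MDSCs by 1.81-fold, a log2 difference of -0.86 ± 0.19.

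Ly6c1, the other Ly6C gene, was far lower. It was at 4.18, 4.66 and 6.01 FPKM in PMN-MDSCs and 9.33, 5.28 and 8.46 in WT Mo-MDSCs, while the DKO-labelled samples were at 2.65, 3.88 and 4.29. WT Mo-MDSC replicate 2 was below PMN-MDSC replicate 3, whereas all DKO-labelled samples were below all WT Mo-MDSC samples. The log2 difference was 0.60 ± 0.23 for WT Mo-MDSCs against PMN-MDSCs and -1.06 ± 0.25 for DKO-labelled against WT Mo-MDSCs. The share of Ly6c1 in the sum of both genes was 2.11% to 4.44% for PMN-MDSCs, 1.36% to 1.84% for WT Mo-MDSCs and 1.01% to 1.72% for DKO-labelled Mo-MDSCs. The sum itself, which depends less on how reads were divided, was 151, 105 and 285 FPKM in PMN-MDSCs and 508, 363 and 622 in WT Mo-MDSCs, while the DKO-labelled samples were at 263, 293 and 249. Its log2 differences were 1.56 and -0.86, so that the value of Ly6c1 against PMN-MDSCs more than doubled on the log2 scale when the pair was summed.

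Ly6i, a close relative of Ly6a in sequence, was lower in every DKO-labelled sample than in any WT sample. It was at 10.04, 6.26 and 15.7 FPKM in PMN-MDSCs and 15.3, 12.98 and 20.4 in WT Mo-MDSCs, while the DKO-labelled samples were at 4.95, 5.15 and 2.84. The DKO-labelled samples lay apart from both WT groups, which overlapped each other. Means were 10.7 ± 4.73, 16.2 ± 3.82 and 4.31 ± 1.28 FPKM (SD, n = 3). DKO-labelled Mo-MDSCs were 3.76-fold lower than WT Mo-MDSCs, with a log2 difference of -1.91 ± 0.25, and WT Mo-MDSCs differed from PMN-MDSCs by 0.67 ± 0.33. When Ly6a, Ly6c1, Ly6c2 and Ly6i were summed in each sample, the log2 difference between DKO-labelled and WT Mo-MDSCs was -0.71.

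Ly6a encodes Sca-1, the antigen by which haematopoietic stem cells are sorted. In contrast to the Ly6C genes, it was highest in PMN-MDSCs, at 189, 196 and 192 FPKM, against 136, 148 and 135 in WT Mo-MDSCs, while the DKO-labelled samples were at 129, 119 and 120. The 3 groups did not overlap and each varied little, with means of 192 ± 3.41, 139 ± 7.02 and 123 ± 5.90 FPKM (SD, n = 3). WT Mo-MDSCs were 1.38-fold lower than PMN-MDSCs, a log2 difference of -0.47 ± 0.07, and the DKO-labelled samples were 1.14-fold lower than WT Mo-MDSCs, a log2 difference of -0.18 ± 0.08. Under quantile normalization these differences shrank to -0.10 and -0.03. The summed FPKM of 3 stem and progenitor markers (Cd34, Kit and Flt3) was 5.67 to 7.11 in PMN-MDSCs, 5.99 to 7.05 in WT and 4.14 to 6.31 in DKO-labelled Mo-MDSCs, and that of 4 endothelial markers 4.07 to 6.40, 2.49 to 3.36 and 2.06 to 4.06. The stem and progenitor sum combined opposite differences, since Kit was higher in PMN-MDSCs than in Mo-MDSCs of WT mice (3.12 to 4.92 against 1.49 to 2.29 FPKM, limma adjusted p = 0.0103) and Flt3 lower (1.69 to 2.58 against 3.54 to 4.44, adjusted p = 0.00605). Flt3 was at 2.21 to 3.29 in the DKO-labelled samples (adjusted p = 0.222 against WT Mo-MDSCs). The B-cell and red-pulp macrophage sums given above were also higher in PMN-MDSCs than in WT Mo-MDSCs. Marker levels do not show how much Ly6a the marked cells carry. The part of any of these cells in the differences of Ly6a was not tested.

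Ly6e, a broadly expressed member that is known to modify the entry of viruses into cells, was the most abundant of the 5 in every sample. It was at 966, 1060 and 1082 FPKM in PMN-MDSCs and 1053, 1075 and 1134 in WT Mo-MDSCs, while the DKO-labelled samples were at 964, 1036 and 952. The WT groups overlapped, and the DKO-labelled samples lay below all WT Mo-MDSC samples by a small margin. The log2 differences were 0.07 ± 0.09 for WT Mo-MDSCs against PMN-MDSCs and -0.14 ± 0.10 for DKO-labelled against WT Mo-MDSCs, and the latter turned to 0.05 under quantile normalization. The FPKM total over all genes was also lower in every DKO-labelled sample (494252 to 534354) than in any WT Mo-MDSC sample (549976 to 618250). The part of that total in the small differences of Ly6e and Ly6a was not tested. In WT Mo-MDSCs the order of levels per length was Ly6e, Ly6c2, Ly6a, Ly6i and Ly6c1, and no sample of one gene reached the range of the next. In PMN-MDSCs, Ly6a and Ly6c2 overlapped, so that their order was not resolved.

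**Figure D1:**
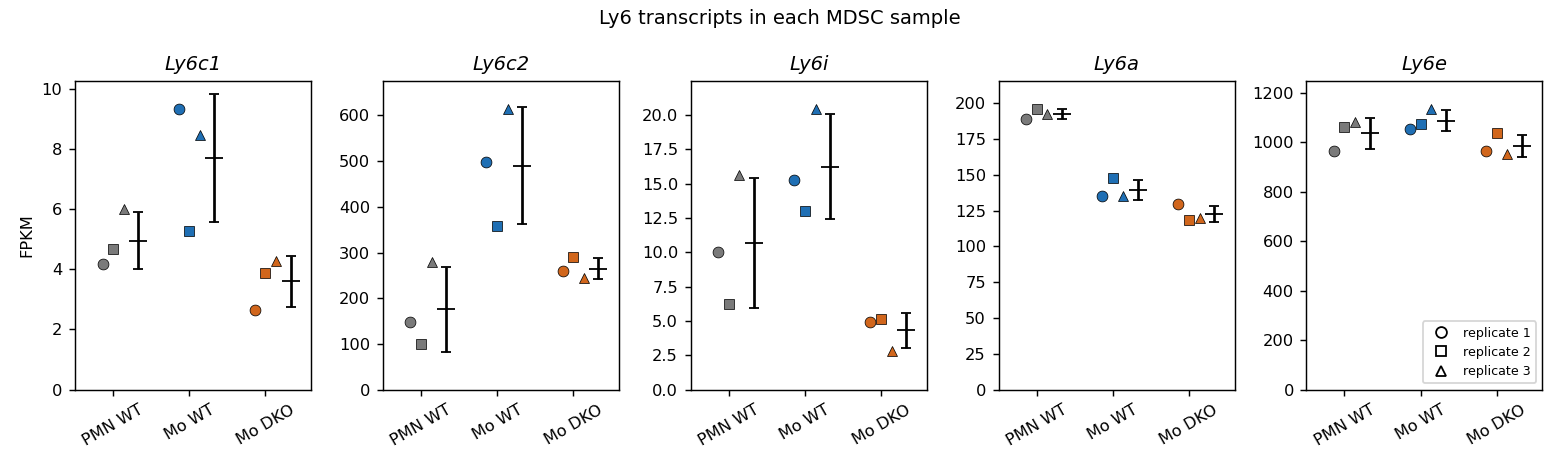
FPKM of the 5 Ly6 genes on linear axes from 0, with 1 symbol per sample (shape, replicate) and the mean ± SD (n = 3) as a bar beside them, for PMN-MDSCs of WT mice, Mo-MDSCs of WT mice and DKO-labelled Mo-MDSCs. All 3 DKO-labelled samples lie below the 3 WT Mo-MDSC samples in each panel, with the largest ratio of means for Ly6i (2.84 to 5.15 against 12.98 to 20.4 FPKM).

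The background of each comparison sets the scale for these counts. Between WT Mo-MDSCs and PMN-MDSCs, 4492 of 11491 genes (39.1%) passed an adjusted p-value of 0.05 by limma, and 52.5% had groups that did not overlap. Of the 5 members, 2 passed (Ly6c2 and Ly6a), which were also the 2 whose groups did not overlap, and 4 passed (Ly6c1, Ly6c2, Ly6i and Ly6a) when the replicate number was fitted as a block. Between DKO-labelled and WT Mo-MDSCs, 29 of 11451 genes (0.253%) passed, 19 higher and 10 lower, and 1 member, Ly6i, was among them. Groups did not overlap for 20.8% of genes in either direction and for 12.9% with DKO-labelled samples lower, as for all 5 members. The median log2 difference of the members was 0.60 against PMN-MDSCs and -0.86 against WT Mo-MDSCs, where those of all genes were 0.01 and -0.02. The members were chosen on these comparisons, so the counts and medians are a description and nothing is read from which members passed. All 5 members passed the filter on low values in both comparisons, which share the 3 WT Mo-MDSC samples. Which members passed depended on the setting. Ly6i did not pass in DKO-labelled against WT Mo-MDSCs when any 1 of the 6 samples was left out, although its log2 difference stayed between -2.06 and -1.64. Without WT Mo-MDSC replicate 2, Ly6c2 passed in its place. Nor did Ly6i pass without a filter, with all 9 samples in 1 fit, with the replicate block or with replicates 2 and 3 only. Against PMN-MDSCs, Ly6c1 passed as well without WT Mo-MDSC replicate 2, and Ly6i without PMN-MDSC replicate 3. Under quantile normalization Ly6a no longer passed and Ly6e did, and with replicates 2 and 3 only Ly6c2 no longer passed and Ly6a alone remained. With the block, the log2 differences against PMN-MDSCs were 0.60 ± 0.18 for Ly6c1 and 0.67 ± 0.13 for Ly6i.

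Ly6c2 and Ly6i varied between samples of a group together with the transcripts of neutrophil granules. Camp, which encodes the cathelicidin peptide of secondary granules, was at 2752, 1640 and 5888 FPKM in PMN-MDSCs and 1996, 1341 and 4319 in WT Mo-MDSCs, while the DKO-labelled samples were at 995, 1342 and 618. Within each of the 3 groups the samples stood in the same order for Ly6c2, for Ly6i and for Camp, and the same was found for Ngp and Ltf, which encode other proteins of these granules, and for Cd177. When values were taken as deviations from the group mean on the log2 scale, Pearson's r with Ly6c2 was 0.915 for Camp, 0.928 for Ngp and 0.932 for Ltf over the 9 samples, and with Ly6i it was 0.943, 0.927 and 0.928. Between Ly6c2 and Ly6i it was 0.882. With Cxcr2, r was 0.703 for both Ly6c2 and Ly6i, and the order of samples was shared in all 3 groups. Mmp8 shared the order in 2 of the 3 groups, with r of 0.770 for Ly6c2 and 0.833 for Ly6i. For Ly6c1, Ly6a and Ly6e the values with Camp were 0.420, -0.400 and 0.546, and the order of samples was shared in 0, 0 and 1 of the 3 groups. With the monocytic markers Ccr2, Cx3cr1 and Csf1r, r was 0.248, -0.383 and -0.760 for Ly6c2 and 0.354, -0.358 and -0.438 for Ly6i. In both WT groups the order of replicate numbers was the same, and same-numbered WT samples deviated together, so these groups are not independent. The comparison with granule genes was chosen after their values were seen, and the 9 points share groups and library series, so the coefficients are a description.

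The levels of neutrophil and monocyte transcripts in the groups were as follows. The summed FPKM of 6 neutrophil markers was 6187 to 22000 for PMN-MDSCs, 4470 to 14100 for WT Mo-MDSCs and 2101 to 4334 for DKO-labelled Mo-MDSCs, and that of 5 monocytic markers was 1047 to 1088, 1498 to 1584 and 1271 to 1412. No marker on either list was at 0 in all samples. Camp had a log2 difference of -1.27 ± 0.44 between DKO-labelled and WT Mo-MDSCs (limma adjusted p = 0.257), Ngp of -1.45 ± 0.44 (adjusted p = 0.223) and Ltf of -1.41 ± 0.43 (adjusted p = 0.222). The groups did not overlap for Ngp and Ltf and overlapped for Camp. These 3 genes set the neutrophil sum, and the other markers of the list did not all go the same way. Mmp8, a neutrophil collagenase, was at 42.3 to 55.2 FPKM in WT and 71.7 to 112 in DKO-labelled Mo-MDSCs without overlap (0.79 ± 0.18, adjusted p = 0.156), and Itgam, which is on both lists, had a difference of -0.34 ± 0.18 (adjusted p = 0.410). Cxcr2 was at 6.87 to 18.6 FPKM in WT and 5.37 to 9.71 in DKO-labelled Mo-MDSCs, with overlap (-0.70 ± 0.37, limma adjusted p = 0.406).

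The monocytic sum was set mostly by Csf1r, at 750 to 853 FPKM in WT and 759 to 919 in DKO-labelled Mo-MDSCs (log2 difference 0.05 ± 0.11, limma adjusted p = 0.859). Ccr2 was lower in the DKO-labelled samples, at 160 to 202 FPKM against 281 to 362, and the difference of -0.86 ± 0.13 did not pass (adjusted p = 0.0626). Cx3cr1, the fractalkine receptor of monocytes, was at 35.5 to 43.6 against 49.6 to 63.1 (-0.48 ± 0.12, adjusted p = 0.175), also without overlap, and F13a1 overlapped at 134 to 194 against 167 to 183 (-0.10 ± 0.14, adjusted p = 0.745). The part of the neutrophil and monocyte transcripts in the lower Ly6 values was not tested.

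**Figure D2:**
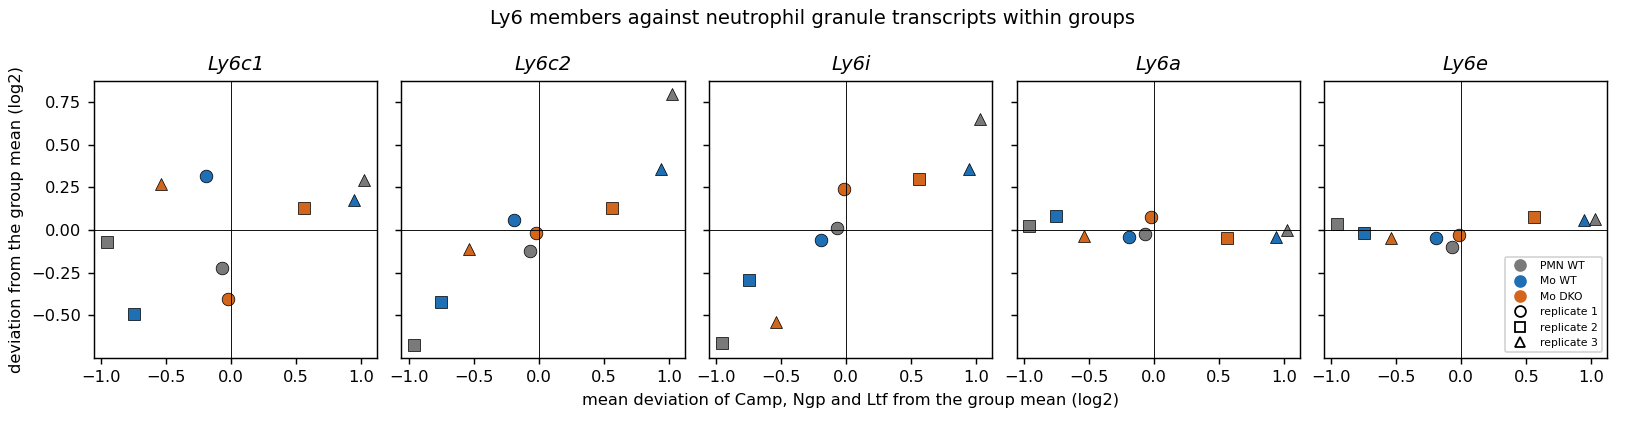
Deviation of each sample from its group mean (log2) for the 5 Ly6 genes on the y axis against the mean deviation of Camp, Ngp and Ltf on the x axis, with 9 samples a panel (colour, group; shape, replicate). The points of Ly6c2 and Ly6i rise from lower left to upper right in all 3 groups, whereas those of Ly6a and Ly6e stay close to the horizontal line and those of Ly6c1 are scattered.

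The wider family was examined to see how the 5 genes compare with their relatives. Of 42 other names of the Ly6/uPAR superfamily, 38 had a row, and 4 (Ly6g, Ly6l, Ly6g2 and Lypd10) are not analysed here. Among the 38, 11 were listed at 0 in all 9 samples, 18 did not pass the filter of 1 FPKM in 3 samples and 9 passed it in at least 1 comparison. Between WT Mo-MDSCs and PMN-MDSCs, 5 of the 9 passed the test, where 39.1% of all genes did, and all 5 were lower in Mo-MDSCs, with a median log2 difference of -0.46 over the 9 genes against 0.01 over all genes. Without PMN-MDSC replicate 1 or 3 the count was 2, and without PMN-MDSC replicate 2 or WT Mo-MDSC replicate 1 or 2 it was 3. Lypd6b is among the 5 and reached 1 FPKM in PMN-MDSCs alone, so the filter fixed its direction. It was not tested when a PMN-MDSC sample was left out. Between DKO-labelled and WT Mo-MDSCs none of 8 passed, and 2 (Ly6g5b and Cd177) had an unadjusted p-value under 0.05, both lower in DKO-labelled samples, where 15.0% of all genes had such a p-value. Ly6g5b passed the filter of this comparison through the WT samples alone, which fixed its direction.

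Ly6d, a surface antigen of B-lineage progenitors and plasmacytoid dendritic cells, had the highest mean FPKM of these relatives in each group, although Cd177 was above it in WT Mo-MDSC replicate 3. It was at 383, 406 and 461 FPKM in PMN-MDSCs and at 243, 237.6 and 260.5 in WT Mo-MDSCs, and the groups did not overlap. The log2 difference was -0.75 ± 0.09 (limma adjusted p = 0.00101), and for DKO-labelled samples, at 267, 255 and 308, it was 0.16 ± 0.10 (adjusted p = 0.482). B-cell markers were higher in PMN-MDSCs by the sums given above. Of 3 markers of plasmacytoid dendritic cells, Siglech was at 0.573 to 0.792 FPKM in PMN-MDSCs and 0.142 to 0.421 in WT Mo-MDSCs without overlap, Ccr9 was at 0.785 to 1.99 and 0.426 to 1.34, and Bst2, which interferon also induces, was at 97.2 to 116 and 110 to 141. Because Bst2 set nearly the whole of their sum, the sum of 98.8 to 119 in PMN-MDSCs and 111 to 142 in WT Mo-MDSCs went against the direction of Siglech. The part of either cell type in the level of Ly6d was not tested.

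Plaur, the urokinase receptor, was lower in WT Mo-MDSCs at 69.1, 58.2 and 93.8 FPKM than in PMN-MDSCs at 110, 101 and 160, with a log2 difference of -0.74 ± 0.22 (limma adjusted p = 0.0362). Its call held in 7 of 14 alternative settings, with limma adjusted p-values from 7.76e-05 to 0.145. The lowest was that with the replicate number as a block, where the log2 difference was -0.74 ± 0.05. The call was lost without WT Mo-MDSC replicate 1 or 2 or PMN-MDSC replicate 1 or 3. Ly6k, a gene known from germ cells, was lower in WT Mo-MDSCs at 2.45, 2.24 and 2.34 FPKM than in PMN-MDSCs at 3.63, 3.64 and 5.17 (log2 difference -0.78 ± 0.17, adjusted p = 0.0093). Lynx1, a modulator of nicotinic acetylcholine receptors, showed a smaller difference of -0.30 ± 0.10 (adjusted p = 0.0446), which passed in 6 of 14 settings and not when any sample was left out. Lypd6b, a further modulator of these receptors, was at 3.90, 3.79 and 3.603 FPKM in PMN-MDSCs and at 0, 0.0358 and 0 in WT Mo-MDSCs (adjusted p = 3.19e-05), and its DKO-labelled values of 0.160, 0.136 and 0.110 were too low for the second comparison. Lypd6b passed the filter through PMN-MDSCs alone, which fixed the direction of its difference. The size of its difference depends on the pseudocount, so no fold is given.

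Cd177, a GPI-anchored glycoprotein of neutrophils, was at 224, 131 and 434 FPKM in PMN-MDSCs and 152, 109 and 294 in WT Mo-MDSCs, while the DKO-labelled samples were at 81.5, 118 and 79.0. The groups overlapped in both comparisons, and replicate 3 was the highest in both WT groups. The log2 difference between WT Mo-MDSCs and PMN-MDSCs was -0.46 ± 0.50 (limma adjusted p = 0.496), and -0.46 ± 0.07 once replicate numbers were fitted as a block (adjusted p = 0.00288). Between DKO-labelled and WT Mo-MDSCs it was -0.89 ± 0.34 (adjusted p = 0.289).

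Ly6g5b lies outside the Ly6 cluster, on chromosome 17. It was at 1.85, 2.11 and 2.58 FPKM in WT Mo-MDSCs and at 0.980, 0.666 and 0.810 in DKO-labelled Mo-MDSCs, without overlap. The log2 difference was -1.31 ± 0.23, with an unadjusted p-value by limma of 0.000584 and an adjusted p-value of 0.0916, which did not pass. All DKO-labelled values were below the filter of 1 FPKM, so the gene entered this comparison through the WT samples alone. RefSeq places Ly6g5b at chr17:35113944-35118558 of GRCm38.p6, 6.02 Mb from Cdkn1a, a gene named in the DKO label, at chr17:29090979-29100722, and the part of that position in the value was not tested. Neither 2010109I03Rik (Ly6m), with log2 differences of 0.09 and -0.21, nor Cd59a, an inhibitor of complement, with -0.01 and 0.34, passed in either comparison (adjusted p of 0.717 and 0.688, and of 0.988 and 0.613).

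**Figure D3:**
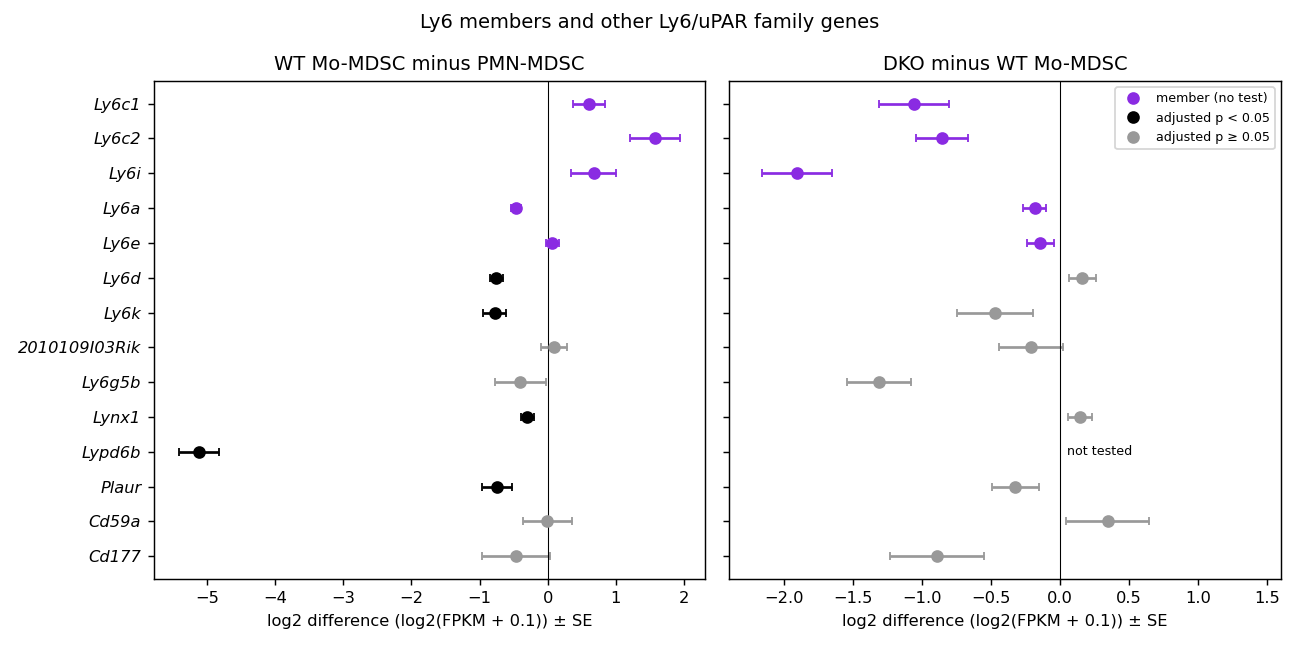
Log2 differences of log2(FPKM + 0.1) with their standard errors, for WT Mo-MDSCs minus PMN-MDSCs on the left and DKO-labelled minus WT Mo-MDSCs on the right. The 5 members are purple and not coloured by their test result, because they were chosen on these comparisons ("no test" in the key). The 9 other Ly6/uPAR genes are black where the limma adjusted p was below 0.05 and grey where it was above. All 5 black points lie below 0 on the left, none is on the right, and Ly6i has the lowest point on the right at -1.91. Of the black points, Lypd6b passed the filter through PMN-MDSCs alone.

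Since interferon is a known inducer of Ly6a and its relatives, 50 interferon-inducible genes were examined, of which 49 passed the filter. Between WT Mo-MDSCs and PMN-MDSCs, 30 of the 49 (61.2%) passed the test, 11 higher and 19 lower, beside 39.1% of all genes, and the median was -0.09. Mx1, an antiviral GTPase, was higher in WT Mo-MDSCs at 30.3 ± 1.73 FPKM (SD, n = 3) than in PMN-MDSCs at 6.37 ± 0.720 (log2 difference 2.24 ± 0.10, limma adjusted p = 1.61e-05). Lower were Slfn1, a member of the Schlafen family (-2.08 ± 0.18, adjusted p = 0.000161), Oasl2 (-1.97 ± 0.15, adjusted p = 0.000112), Oasl1 (-1.91 ± 0.16, adjusted p = 0.000167) and Oas3 (-1.67 ± 0.18, adjusted p = 0.000436) of the oligoadenylate synthetase family, and Ifit1, which binds viral RNA (-1.85 ± 0.16, adjusted p = 0.000171). Genes of this list thus moved in both directions between the subsets.

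In DKO-labelled against WT Mo-MDSCs, none of the 49 passed by limma, and 9 had an unadjusted p-value under 0.05, 4 higher and 5 lower, beside 15.0% of all genes, and the median was -0.06. Of the 49, 19 were higher and 30 lower in the DKO-labelled samples, with log2 differences from -0.60 to 0.84. The genes with the largest differences were higher in the DKO-labelled samples, without passing the adjusted threshold. Ifi44 was at 5.86 ± 1.16 against 3.22 ± 0.613 FPKM (SD, n = 3), with a log2 difference of 0.84 ± 0.19 (adjusted p = 0.156). Iigp1, an interferon-induced GTPase, was at 11.3 ± 2.76 against 7.08 ± 1.48 (0.66 ± 0.20, adjusted p = 0.221), and Ciita, the transactivator of MHC class II genes, at 60.3 ± 6.61 against 38.5 ± 3.85 (0.65 ± 0.11, adjusted p = 0.0862). In the same comparison the 5 Ly6 members had differences from -1.91 to -0.14, and the part of interferon in them was not tested.

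Of 10 genes of interferon receptors and signalling, 8 passed between WT Mo-MDSCs and PMN-MDSCs, 3 higher and 5 lower, beside 39.1% of all genes. Ifngr1, a chain of the receptor for interferon-gamma, was at 288 ± 25.2 FPKM in WT Mo-MDSCs and 189 ± 9.08 in PMN-MDSCs (0.60 ± 0.09, limma adjusted p = 0.00222), whereas Jak1, a kinase of these receptors, was at 74.9 ± 2.94 and 140 ± 9.82 (-0.90 ± 0.08, adjusted p = 0.000199). Tyk2, another such kinase, was higher in WT Mo-MDSCs (1.11 ± 0.07, limma adjusted p = 6.2e-05). None of the 10 passed between DKO-labelled and WT Mo-MDSCs, where 2, Ifngr2 and Tyk2, had an unadjusted p-value under 0.05 and were lower. The genes named from these 10 were chosen after their values were seen.

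Ly6 proteins need a GPI anchor, so 28 genes of its synthesis and attachment were examined, and all 28 passed the filter. In WT Mo-MDSCs against PMN-MDSCs, 10 of the 28 (35.7%) passed the test, 6 higher and 4 lower, which is near the 39.1% of all genes, and the median was 0.10. Pigb (-0.93 ± 0.13, limma adjusted p = 0.00148), a mannosyltransferase of the pathway, and Pigx (-0.88 ± 0.13, adjusted p = 0.00185) were lower in WT Mo-MDSCs. Higher were Pigw (0.57 ± 0.14, adjusted p = 0.0187), Pigh (0.56 ± 0.12, adjusted p = 0.00824) and Pigo (0.47 ± 0.10, adjusted p = 0.00896) of the synthesis steps, and Gpaa1 (0.54 ± 0.11, adjusted p = 0.00697), a subunit of the transamidase that attaches the anchor to the protein. Without WT Mo-MDSC replicate 2 or PMN-MDSC replicate 3 the call of Pigw was lost, with log2 differences of 0.47 and 0.50.

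None of the 28 passed between DKO-labelled and WT Mo-MDSCs by limma, and 3 had an unadjusted p-value under 0.05, 1 higher and 2 lower, again beside 15.0% of all genes. The genes with the largest differences were Pgap1, which remodels the anchor (0.45 ± 0.20, limma adjusted p = 0.336), Pigz (0.41 ± 0.16, adjusted p = 0.297) and Pigx (-0.37 ± 0.14, adjusted p = 0.287). The median over the list was -0.03, beside -0.02 over all genes.

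The genes whose levels followed each member most closely over the 9 samples were found by Pearson's r of log2(FPKM + 0.1) among 11519 genes. For Ly6c2 they were Ptgir (0.986), the prostacyclin receptor, Ticam1 (0.985), an adaptor of Toll-like receptors, and Lyz2 (0.985), the lysozyme of myeloid cells, which was at 1907 to 4287 FPKM in PMN-MDSCs, 5960 to 8694 in WT and 4688 to 5356 in DKO-labelled Mo-MDSCs. For Ly6c1 they were Rbpj (0.966), the DNA-binding factor of Notch signalling, Pcnx (0.932) and Pcgf1 (0.927). For Ly6i they were Acot9 (0.966), 0610040J01Rik (0.962) and Fut7 (0.945), a fucosyltransferase that makes selectin ligands.

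For Ly6a the closest were Prnp (0.987), which encodes the GPI-anchored prion protein, Siglec5 (0.987) and Fam76a (0.986). Siglec5 was at 15.3 to 18.1 FPKM in PMN-MDSCs and 0.765 to 1.96 in WT Mo-MDSCs, while Prnp was at 24.7 to 26.8 and 16.3 to 19.6. For Ly6e they were Ncstn (0.962), Eif2b2 (0.959) and U2af1l4 (0.958). No member was among the closest genes of another, and between members r ranged from -0.588 for Ly6c2 and Ly6a to 0.766 for Ly6c1 and Ly6i. These coefficients are over samples of 3 groups, so that they largely follow group means, and are given without a p-value.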

How the data were processed

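FPKM values of 9 samples (3 WT PMN-MDSC, 3 WT Mo-MDSC and 3 DKO-labelled Mo-MDSC) were analysed, with groups and replicate numbers from the sample titles. The authors sequenced stranded poly(A) libraries from 1 end, aligned the reads to mm10 and deposited FPKM values, 1 per gene symbol. The submitters' processing notes name TopHat2 2.0.13, Bowtie2 2.2.3, SAMtools 0.1.19 and Cuffnorm 2.2.1. The gene annotation and the scaling of libraries are not given in the sources used here. FPKM cannot be tested as counts, and precision is given by standard errors.

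Values were transformed to log2(FPKM + 0.1), and limma 3.58.1 was fitted to each comparison's 6 samples for genes that reached 1 FPKM in 3 or more of them (lmFit, eBayes with a trend; R 4.3.3), without covariates. P-values were adjusted by Benjamini-Hochberg over all genes tested, with a threshold of 0.05. The script was tested on simulated data. Alternatives were pseudocounts of 1 and 0.01, a block for the replicate number, no filter or a stricter one (1 FPKM in every sample), quantile normalization, a joint fit of the 9 samples, replicates 2 and 3 alone, each sample left out in turn and, for near-copies, summed values.

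The members and lists were chosen with earlier results of these data known. The text names all members, every other Ly6/uPAR gene past the filter, up to 6 genes of the interferon-inducible and GPI lists per comparison by fold among those called, or else 3, and the 3 genes most like each member. Same-numbered samples of WT Mo-MDSCs and PMN-MDSCs deviated together from their group means (r of 0.483 at the highest and 0.200 at the lowest over 3 pairs). Samples of unlike number had r from -0.429 to 0.05. The number thus pairs these samples by the data, not by a stated source. Blocked values for this comparison are given beside reported results whose call changed. Transcripts of GENCODE M21 were compared with Biopython 1.88 in Python 3.11.15; the Ly6g transcript was the one with a start codon.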

Additional observations from a re-analysis of the deposited data

How the results depend on the processing

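All log2 differences of Ly6c1, Ly6c2, Ly6i and Ly6a kept their sign under every alternative run. Among the 5 members, Ly6e alone reversed, from -0.144 to 0.048 between DKO-labelled and WT Mo-MDSCs under quantile normalization, which moved it to 0.37 for WT Mo-MDSCs against PMN-MDSCs. That scaling also moved Ly6a to -0.102 and -0.035, and the median of all genes from 0.01 to 0.06 and from -0.02 to 0.01. The sum with Ly6c2 moved Ly6c1 to 1.56 against PMN-MDSCs, and the sum of 4 near-copies moved Ly6i to -0.71, because the more abundant genes set the sum. With samples left out in turn, Ly6i ranged from -2.06 to -1.64 between DKO-labelled and WT Mo-MDSCs, Ly6c2 from 1.24 to 1.98 and Ly6c1 from 0.44 to 0.85 between WT Mo-MDSCs and PMN-MDSCs. Within replicates 2 and 3, the later library series, Ly6i was at -2.06 and Ly6c2 at -0.82. Replicate 1 has 1 sample a group, so no test within it was possible.

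The number of genes called between DKO-labelled and WT Mo-MDSCs was 29, and 13 without a filter, 52 with all 9 samples in 1 fit, 12 with replicates 2 and 3 only and 8 to 25 with samples left out in turn. Between WT Mo-MDSCs and PMN-MDSCs, replicates 2 and 3 alone gave 2960 genes in place of 4492, 3 of the other Ly6 relatives in place of 5 and 6 GPI genes in place of 10, and leaving out samples gave 2 to 4 relatives. No relative, interferon-inducible gene or GPI gene was called between DKO-labelled and WT Mo-MDSCs under any alternative. Fewer samples were fitted with replicates 2 and 3 only or with samples left out, and more genes without a filter. The cause of the count in the joint fit was not tested.

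With the replicate number as a block, 20 genes were called between DKO-labelled and WT Mo-MDSCs and no member was. There, same-numbered samples had correlations of deviations from -0.07 to 0.348, and samples of unlike number from -0.388 to 0.175. The pairs of replicates 1 (0.348) and 2 (0.226) lay above the latter range and that of replicate 3 (-0.07) within it. The numbers were therefore not taken to pair these samples, although replicate 1 of each group shares the earlier library numbers and a pairing of some samples is possible. Between WT Mo-MDSCs and PMN-MDSCs the block gave 6584 genes, 6 relatives, 35 interferon-inducible and 14 GPI genes. The unknown depth in reads and 3 samples a group limit what could be detected.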

Other observations

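Within groups, the genes that deviated from the group mean most like each member were other than those that followed its level, with the exception of Lyz2 and Rbpj. For Ly6c2 they were Lyz2 (Pearson's r = 0.995 over 9 samples), Parp10 (0.992) and Plekhg1 (0.983), and for Ly6i Rtn3 (0.990), Rnf34 (0.985) and Tgm4 (0.983). For Ly6e they were Uqcr10 (0.994) and Uqcrq (0.990), which encode subunits of the respiratory chain's complex III, and Csf2ra (0.986), a chain of the GM-CSF receptor. For Ly6a they were Arhgap29 (0.977), Crip2 (0.963) and Pdgfc (0.961), and for Ly6c1 Eif2ak3 (0.963), D10Wsu52e (0.954) and Rbpj (0.948). They are the highest of 11519 genes compared and are a description.

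One relative among the low genes, 2210415F13Rik (Lypd8), was at 19.4, 18.9 and 20.6 FPKM in replicate 1 of PMN-MDSCs, WT Mo-MDSCs and DKO-labelled Mo-MDSCs and listed at 0 in the other 6 samples. It is 1 of the 11 genes seen in replicate 1 alone, and there was no gene set apart in this way for replicate 2 or 3. By the library numbers in the labels, the replicate 1 libraries were numbered in an earlier run of numbers than the rest. No member was among these genes. This was noticed after the values were seen.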
